A study of Canis lupus familiaris with 6 samples.

Results

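Epithelial-mesenchymal transition (EMT) markers were examined in the canine keratinocyte line CPEK after treatment with cold atmospheric microwave plasma. The set was chosen by gene symbol and holds 10 genes: the epithelial cadherins CDH1 and CDH3, the mesenchymal genes VIM, CDH2 and FN1, and the transcription factors SNAI1, SNAI2, ZEB1, ZEB2 and TWIST1. Of these, 9 were found among the 35993 genes of the deposited gene table. TWIST1 was found neither by its symbol nor by its gene identifier and was not analysed here. Reads were counted on 7 of the 9 genes, and these 7 passed the filter on low counts, which kept 14708 genes for testing. ZEB1 and ZEB2 were listed at 0 in all 6 libraries.

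CPEK cells, which are progenitor epidermal keratinocytes of the dog with the wild-type genotype according to their label, were exposed for 30 s either directly to the plasma (dCAMP, 3 libraries) or to the gas alone (gas control, 3 libraries). The medium was replaced after 15 min and RNA was collected 24 h after that. Both groups were grown without a described scratch before RNA extraction. Nothing in the labels says that the 3 libraries of a group came from separate experiments, so the p-values below measure the spread between these libraries, which may be technical, and all libraries come from 1 cell line.

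In EMT, epithelial cells lose E-cadherin-based junctions and take up a mesenchymal program with vimentin, N-cadherin and fibronectin. The change is driven by transcription factors of the SNAI, ZEB and TWIST families, which bind the CDH1 promoter and repress it, and which respond to signals such as TGF-beta. In skin, keratinocytes at the margin of a wound loosen their junctions and migrate, and SNAI2 is the member of the SNAI family best known for a role in this step. The comparison of dCAMP with gas asked whether the balance between these epithelial and mesenchymal genes differed after plasma treatment of the keratinocytes.

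The gas libraries lay at unlike distances from the dCAMP libraries. Between 43084921 and 54082634 counts were assigned to genes per library. In the dCAMP libraries, the median gene differed from the mean of the other dCAMP libraries by 0.0805 to 0.0947 on the log2 scale. In gas 1, gas 2 and gas 3 it differed from the mean of all dCAMP libraries by 0.48, 0.29 and 0.13. The gas values include any difference between the treatments, and gas libraries were not compared with each other. In gas 1, 21.8% of the genes tested differed at least 2-fold from the dCAMP mean, against 2.22% in gas 3. Log2 expression, taken as the deviation of each gene from its mean over the 6 libraries, also changed with gene length. The slope per doubling of length was -0.083 and -0.051 in gas 1 and gas 2, and 0.026 to 0.041 in the other 4 libraries. These slopes compare the libraries with each other, and their signs do not show an absolute trend within a library. The keratinocyte identity of the cells was seen in all libraries: 11 of 12 keratinocyte markers were detected, with a summed level of 19090 to 23900 FPKM in gas and 17770 to 18910 FPKM in dCAMP, and only KRT1, a keratin of differentiated layers, was listed at 0. FPKM denotes fragment counts scaled by the authors to transcript length and mapped reads, so it allows levels of different genes to be compared. Markers of other cell types that also express mesenchymal genes were low beside the keratinocyte markers. The 8 fibroblast markers summed to 1.47 to 1.56 FPKM in gas and 1.35 to 1.52 FPKM in dCAMP with PDGFRB, DCN and LUM at 0. The 7 melanocyte markers summed to 1.61 to 1.87 FPKM in gas and 1.87 to 2.55 FPKM in dCAMP with TYR, DCT and TYRP1 at 0. The 6 endothelial markers summed to 2.01 to 2.39 FPKM in gas and 2.53 to 3.13 FPKM in dCAMP with PECAM1 at 0. For the 6 leukocyte markers the sum was 1.24 to 1.80 FPKM in gas and 1.43 to 2.15 FPKM in dCAMP with PTPRC, CD3E and AIF1 at 0. The highest of these markers were VWF (1.281 FPKM in gas and 1.575 FPKM in dCAMP) and MITF (1.144 and 1.628 FPKM). The endothelial sum was near the level of SNAI1, a tested member of the set (2.62 FPKM in gas and 2.75 FPKM in dCAMP). At an unadjusted p under 0.05 in edgeR, 2 keratinocyte markers were higher (DSG3 and ITGA6) and 2 lower in dCAMP (KRT14 and KRT5) of 11 tested, against 1 lower of 4 fibroblast markers (COL1A1), 1 higher of 4 melanocyte markers (MLANA), 2 higher of 3 endothelial markers (KDR and CDH5) and 1 higher of 3 leukocyte markers (ITGAM); over all genes tested the share was 20.7%. KRT5, ITGAM and CDH5 kept such a p in only 6, 6 and 7 of the 17 alternative settings. MLANA rested on 4, 0 and 0 counts in gas and 13, 16 and 11 counts in dCAMP. It kept such a p in 13 of the 15 alternatives that held it, with log2 fold changes of 0.274 to 4.905. The part of these differences in the values below was not tested.

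Epithelial and mesenchymal markers were expressed side by side in CPEK cells. VIM, the intermediate filament protein of mesenchymal cells, was the most abundant of the 9 genes found, with 281.5 ± 17.6 FPKM in gas and 190.2 ± 17.4 FPKM in dCAMP (SD, n = 3), which placed it at rank 250 of all genes in gas and rank 342 in dCAMP. CDH3 followed with 115 ± 20.0 FPKM in gas and 93.4 ± 3.22 FPKM in dCAMP, and CDH1 with 88.5 ± 0.325 FPKM and 92.9 ± 2.14 FPKM. SNAI2, a transcription factor, came next with 74.6 ± 8.80 FPKM in gas and 72.5 ± 9.41 FPKM in dCAMP. FN1 stood at 24.7 ± 2.74 FPKM in gas and 20.7 ± 1.11 FPKM in dCAMP, and CDH2 at 7.69 ± 1.16 FPKM and 7.28 ± 0.647 FPKM. SNAI1 was the lowest detected gene of the set, with 2.62 ± 0.660 FPKM in gas and 2.75 ± 0.289 FPKM in dCAMP. The order of the 7 genes was the same in both groups, and the ranges of neighbouring genes in this order did not overlap, except for CDH3 and CDH1 in dCAMP, whose means stood at a ratio of 1.01. The value of SNAI2 rests on a gene model of 807 bases, the shortest among the 9 genes, and a level per length depends on the length of the model.

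**Figure D1:**
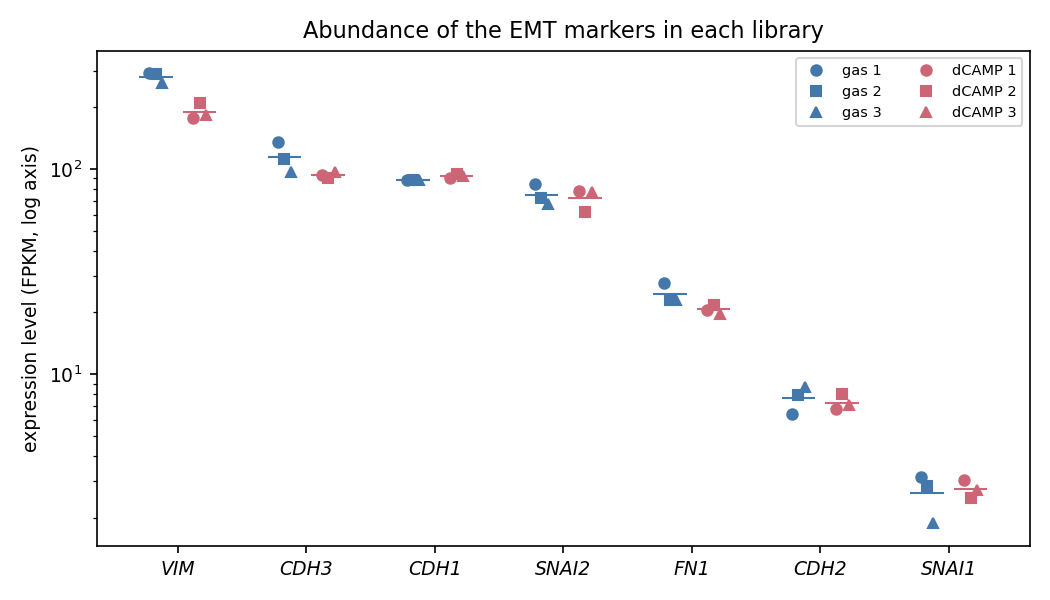
Expression levels of the 7 detected EMT markers in FPKM on a log axis, 1 point per library, with gas libraries in blue, dCAMP libraries in red and a line at each group mean; ZEB1 and ZEB2, listed at 0, cannot be drawn on this axis. VIM lies at 177.3 to 293 FPKM, CDH3, CDH1 and SNAI2 at 61.7 to 136.1 FPKM, and SNAI1 at 1.88 to 3.14 FPKM, and the order of the means is the same in both groups.

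Of the 7 genes tested, only VIM and FN1 had an unadjusted p under 0.05 in edgeR's quasi-likelihood test, and both were lower in dCAMP. That is 28.6% of the 7, against 20.7% of all genes tested in either direction and 13.9% of all genes tested in the lower direction, and with 7 genes a single gene more or less moves the share by 14.3 percentage points. None of the 7 had an adjusted p under 0.05 in this test, and neither had any other gene (0%). None changed 2-fold with an unadjusted p under 0.05, as 1.09% of all genes did. The libraries of the groups did not overlap in CPM (read counts scaled to the normalized library size) for 4 of the 7 genes (57.1%), against 39.9% of all genes tested. Of these, VIM, FN1 and CDH3 were lower in dCAMP (42.9% of the 7, against 20.9% of all genes), and CDH1 was higher. In a bulk sample, fewer cells expressing a gene and less RNA of it per cell cannot be told apart.

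CDH1 encodes E-cadherin, the adhesion molecule of epithelial adherens junctions. It lies on chromosome 5 of CanFam3.1 (80757508 to 80834878), and all its reads were assigned to a single transcript of 4306 bases. Its level was 88.2, 88.5 and 88.9 FPKM in gas 1, 2 and 3, and 90.8, 95.1 and 92.6 FPKM in dCAMP 1, 2 and 3. The gas values lay within 1 FPKM of each other and every dCAMP value was above them, but the step was small. In CPM the gas values were more spread, at 422, 435.2 and 441 against 448.1, 463.4 and 453.2 in dCAMP. The difference from the dCAMP mean was -0.108, -0.064 and -0.045 on the log2 scale in gas 1, 2 and 3, graded over the gas libraries. The log2 fold change was 0.07 (SE 0.065, 95% confidence interval -0.09 to 0.23, edgeR unadjusted p = 0.31, adjusted p = 0.464), and its sign turned to -0.01 with upper-quartile scaling and to -0.10 with a correction for gene length. The interval leaves room for a change between 0.942-fold and 1.17-fold.

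CDH3 encodes P-cadherin, the cadherin of basal keratinocytes, and is the neighbour of CDH1, 29980 bases away on chromosome 5 (80864859 to 80912136). Its level was 136.1, 112.4 and 96.4 FPKM in gas 1, 2 and 3, and 93.7, 90.1 and 96.5 FPKM in dCAMP 1, 2 and 3. Gas 3 thus lay within the dCAMP range in FPKM, while in CPM (489, 415.1 and 359.4 against 347.1, 329.6 and 354.6) it lay just above it. The log2 fold change was -0.29 (SE 0.12, 95% confidence interval -0.59 to 0.00, edgeR unadjusted p = 0.0517, adjusted p = 0.243). The difference from the dCAMP mean was 0.51 on the log2 scale in gas 1, 0.27 in gas 2 and 0.07 in gas 3, which is the order in which these libraries differed from dCAMP over all genes. In edgeR its unadjusted p was 0.0436 without a filter on low counts and 0.0386 with the correction for gene length. It was under 0.05 in only 4 of 17 alternatives, which also included voom with quality weights and the fit without gas 3. Without gas 2, dCAMP 1, dCAMP 2 or dCAMP 3 it was 0.0994, 0.109, 0.135 and 0.0902 in edgeR. With the replicate number as a block it was 0.0776 in edgeR, and in DESeq2 it was 0.0693. Whether the general distance of gas 1 and gas 2 contributes to the CDH3 difference was not tested. Together, CDH1 and CDH3 had a median log2 fold change of -0.11, against 0.03 over all genes tested.

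VIM is located on chromosome 2 (19671316 to 19679367), with 1 transcript of 1862 bases. Its level was 293, 290.3 and 261.3 FPKM in gas 1, 2 and 3, and 177.3, 210 and 183.2 FPKM in dCAMP 1, 2 and 3. All 3 gas libraries were higher than all 3 dCAMP libraries, and the gap between the lowest gas and the highest dCAMP library was wider than the range within either group. The read counts were 28059, 32512 and 29745 in gas and 17526, 18970 and 17518 in dCAMP. The log2 fold change was -0.56 (SE 0.090, 95% confidence interval -0.78 to -0.34), a ratio of 0.677, with an edgeR unadjusted p of 0.000645, the smallest of the 7 genes and rank 15 of the 14708 genes tested. After adjustment over all genes p was 0.221. In DESeq2's test the adjusted p of VIM was 0.0136, and VIM was the only one of the 7 genes called there (14.3%), against 1.25% of the genes with an adjusted p. Unlike CDH3, VIM was not graded over the gas libraries: its difference from the dCAMP mean was 0.59, 0.62 and 0.48 on the log2 scale in gas 1, 2 and 3, so that gas 3, the gas library closest to dCAMP over all genes, still showed most of it. An uncharacterized gene (LOC111091458) overlaps the VIM locus and held 0 to 12 counts per library.

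FN1, the gene of the matrix glycoprotein fibronectin, is located on chromosome 37 (22456854 to 22522410). Its level was 27.8, 23.1 and 23.1 FPKM in gas 1, 2 and 3, and 20.6, 21.8 and 19.6 FPKM in dCAMP 1, 2 and 3. The groups did not overlap, although gas 2 and gas 3 were closer to dCAMP 2 than to gas 1. The log2 fold change was -0.25 (SE 0.096, 95% confidence interval -0.48 to -0.02, edgeR unadjusted p = 0.0385, adjusted p = 0.235). This unadjusted p was not kept under 0.05 in 8 of 17 alternatives, among them DESeq2 (adjusted p = 0.211, unadjusted 0.0554) and 4 of the 6 edgeR fits that leave out 1 library. These 4 left out gas 2, dCAMP 1, dCAMP 2 or dCAMP 3, and their unadjusted values in edgeR were 0.0556, 0.1, 0.06 and 0.123. FN1 has the longest transcripts of the tested markers, and with the correction for gene length its log2 fold change was -0.53.

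FN1 was the only detected member with several annotated transcripts. Its 11 transcripts are 7191 to 8094 bases long. Variants X7 and X4 together held 59.1% to 68.1% of the FN1 counts in every library. X7 took 37.8%, 35.2% and 31.6% of them in gas 1, 2 and 3, and 39.7%, 36.1% and 39.0% in dCAMP. X4 took 21.2%, 27.8% and 29.7% in gas and 28.2%, 28.1% and 29.1% in dCAMP, so that only gas 1 stood apart from the rest. In CPM, X9 was lower in every dCAMP than in every gas library, with a mean of 20.9 ± 7.77 in gas and 13.2 ± 2.99 in dCAMP (SD, n = 3), and so were the minor variants X1 (4.27 ± 1.17 against 2.48 ± 0.275) and X8 (1.81 ± 0.239 against 1.03 ± 0.421). The other 8 variants overlapped between the groups. At the gene level, 20.9% of all genes tested were lower in dCAMP without overlap, and the share over all transcripts was not computed. X8 rested on only 28 to 109 counts per library. The transcripts share most of their sequence, so the assignment of reads among them is an estimate, and no test was made on it.

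**Figure D2:**
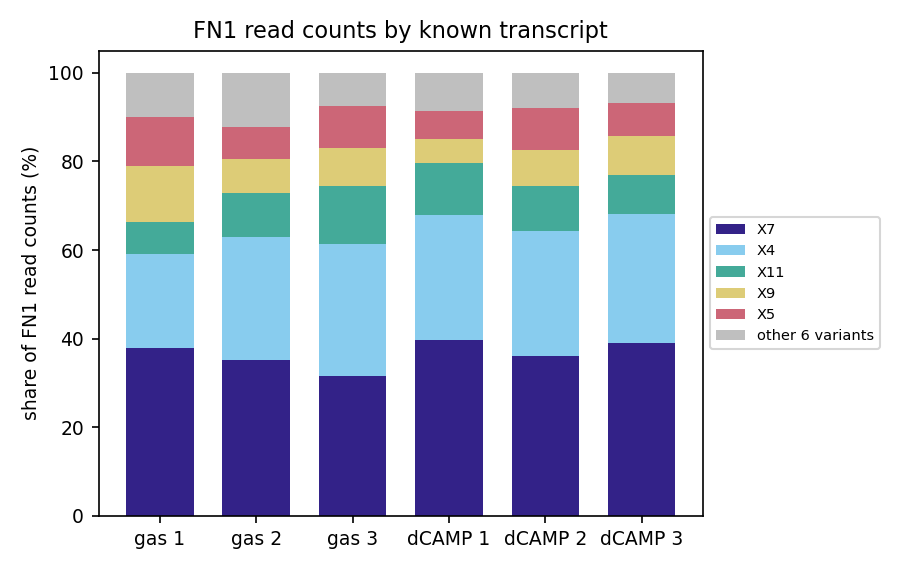
Share of the FN1 read counts assigned to each known FN1 transcript variant, in percent, with 1 stacked bar per library and the 6 least abundant variants summed. X7 and X4 make up 59.1% to 68.1% of each bar, and gas 1 has the smallest share of X4 (21.2%).

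CDH2 encodes N-cadherin, which replaces E-cadherin in mesenchymal cells, and is located on chromosome 7 (60736760 to 60950477). Its level was 6.43, 7.94 and 8.71 FPKM in gas 1, 2 and 3, and 6.77, 8.01 and 7.06 FPKM in dCAMP 1, 2 and 3. The groups overlapped, with the lowest and the highest value both in the gas group. The log2 fold change was -0.08 (SE 0.15, 95% confidence interval -0.45 to 0.29, edgeR unadjusted p = 0.62), an interval that covers changes from 0.733-fold to 1.22-fold. In voom with quality weights the unadjusted p of CDH2 was 0.0471 in limma, at a log2 fold change of -0.15, and in the other 16 alternatives it was not under 0.05. Its level stayed far under that of CDH1, at a CDH1 to CDH2 ratio of 10.2 to 13.7 in gas and 11.9 to 13.4 in dCAMP. Over VIM, CDH2 and FN1 the median log2 fold change was -0.25, against 0.03 over all genes tested.

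Among the transcription factors, SNAI2 (Slug, chromosome 29, 1154132 to 1156653) and SNAI1 (Snail, chromosome 24, 36498343 to 36503623) are zinc finger repressors that bind E-box sequences. SNAI2 was expressed at 84.5, 71.9 and 67.5 FPKM in gas 1, 2 and 3, and at 78.4, 61.7 and 77.5 FPKM in dCAMP 1, 2 and 3. The highest value was that of gas 1 and the lowest that of dCAMP 2, and between them gas 2 and gas 3 lay below dCAMP 1 and dCAMP 3. For SNAI2 the log2 fold change was -0.04 (SE 0.14, 95% confidence interval -0.36 to 0.29, edgeR unadjusted p = 0.804), and its sign turned in 5 of 17 alternatives, the correction for gene length among them (0.02).

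SNAI1 was expressed at 3.14, 2.85 and 1.88 FPKM in gas 1, 2 and 3, and at 3.06, 2.48 and 2.71 FPKM in dCAMP 1, 2 and 3. Gas 3 was the lowest library, and gas 1 and gas 2 were within or just above the dCAMP range. For SNAI1 the log2 fold change was 0.08 (SE 0.21, 95% confidence interval -0.42 to 0.58, edgeR unadjusted p = 0.724), with the widest interval of the 7 genes. It rested on counts of 178 to 266 per library, and its sign turned with upper-quartile scaling (-0.02) and without gas 3 (-0.15). The SNAI2 to SNAI1 ratio of FPKM values was 26.9, 25.2 and 35.9 in gas and 25.7, 24.9 and 28.6 in dCAMP, so SNAI2 was the predominant SNAI gene in both groups. The median log2 fold change of SNAI1 and SNAI2, the only 2 of the 5 transcription factors that could be tested, was 0.02, against 0.03 over all genes, and it was -0.145 without gas 3 and 0.106 without gas 1.

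ZEB1 (chromosome 2, 15300401 to 15481535) and ZEB2 (chromosome 19, 46419812 to 46541888) encode zinc finger homeobox repressors of E-cadherin. All 5 annotated ZEB1 transcripts and the single ZEB2 transcript were listed at 0 in every library. By counting error alone, a count of 0 allows up to 3 counts. At the depth of these libraries this corresponds to 0.0555 to 0.0696 CPM (counts scaled by the total alone). For ZEB1 this limit is at most 0.0117 FPKM, far under the 2.62 FPKM of SNAI1 in gas. The limit holds only where a listed 0 reflects counting error, which was not tested. A listed 0 did not always do so. SOX10 was listed at 63, 73 and 0 counts in gas 1, 2 and 3, and at 0, 0 and 72 counts in dCAMP 1, 2 and 3. Being listed at 0 was common, since 15709 genes (43.6% of the table) had no count in any library, and a difference between the groups could not be examined for either gene.

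**Figure D3:**
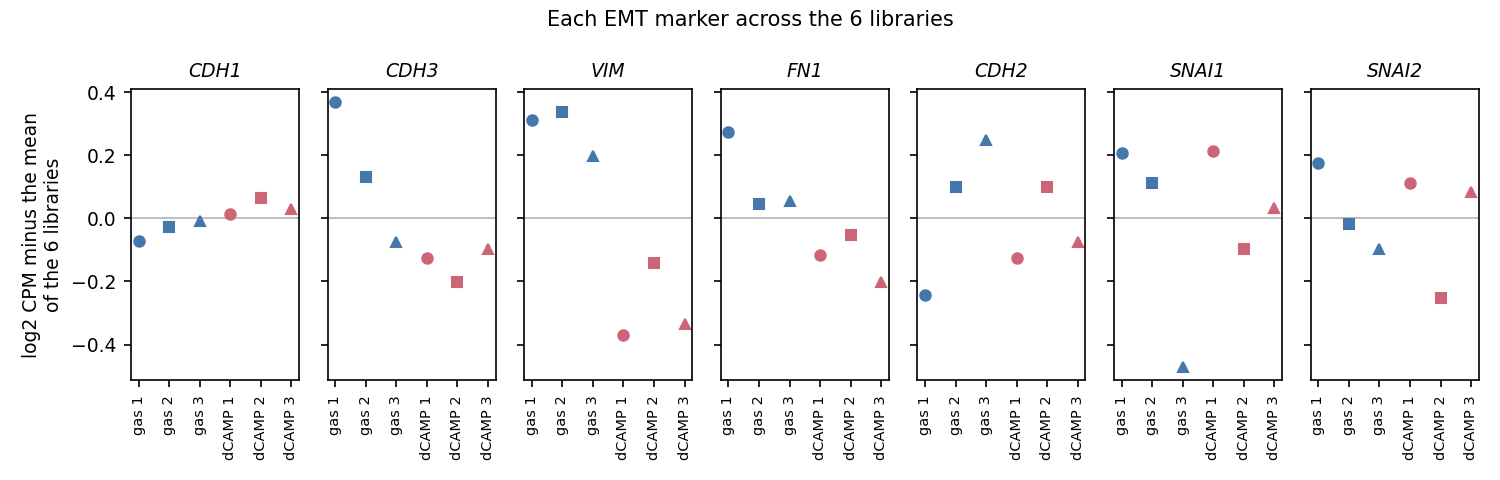
Log2 CPM of each of the 7 tested EMT markers in the 6 libraries, minus the mean of the gene over the 6 libraries, with gas libraries in blue and dCAMP libraries in red. VIM, FN1 and CDH3 lie higher in each gas library than in each dCAMP library, CDH1 lies lower, and the groups overlap for CDH2, SNAI1 and SNAI2; CDH3 steps down from 0.37 in gas 1 to -0.08 in gas 3, next to the dCAMP libraries.

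Ratios taken within a library do not depend on the scaling factor of the library, but they do depend on a trend with gene length. The ratio of CDH1 to VIM in FPKM was 0.301, 0.305 and 0.340 in gas 1, 2 and 3, and 0.512, 0.453 and 0.506 in dCAMP 1, 2 and 3. The ratio was higher in every dCAMP library, by 0.64 on the log2 scale between the means (0.315 ± 0.0216 against 0.490 ± 0.0326, SD, n = 3), and most of this step came from the VIM term, as the CDH1 levels of the groups lay at 88.5 and 92.9 FPKM. The ratio of CDH1 to CDH3 was 0.648, 0.787 and 0.921 in gas and 0.969, 1.06 and 0.960 in dCAMP. It did not overlap between the groups either, but gas 3 lay next to the dCAMP values. The ratio of VIM to FN1 was 10.5, 12.6 and 11.3 in gas and 8.60, 9.63 and 9.35 in dCAMP, so VIM was lower relative to FN1 in every dCAMP library. With the correction for gene length, however, the log2 fold changes were -0.54 for VIM and -0.53 for FN1, so the difference between these genes was not seen there. These ratios describe 6 libraries and were not tested.

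**Figure D4:**
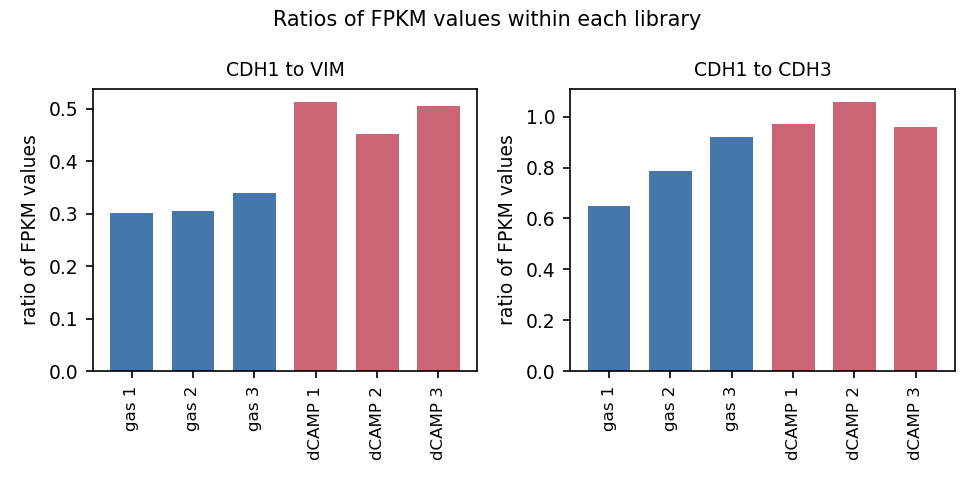
Ratio of FPKM values of CDH1 to VIM (left) and of CDH1 to CDH3 (right) in each library, with gas libraries in blue and dCAMP libraries in red and both axes starting at 0. The CDH1 to VIM bars are 0.301 to 0.340 in gas and 0.453 to 0.512 in dCAMP; the CDH1 to CDH3 bars are 0.648 to 0.921 in gas, highest in gas 3, and 0.960 to 1.06 in dCAMP.

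Leaving out gas 3, the gas library most like dCAMP, brought the adjusted p-values of VIM and CDH3 under 0.05. Without it the log2 fold change of VIM was -0.65 (edgeR adjusted p = 0.0203), that of CDH3 -0.44 (adjusted p = 0.0262) and that of FN1 -0.33 (adjusted p = 0.0508). VIM and CDH3 were then called in the lower direction (28.6% of the 7), against 18.1% of the genes tested in that fit. With voom, in which limma gives each library a quality weight, VIM, CDH3 and FN1 had adjusted p-values of 0.0002, 0.00111 and 0.00813 (42.9% of the 7), against 60.8% of all genes tested. Without gas 1, the library farthest from dCAMP, the log2 fold change of VIM was -0.57 and that of CDH3 -0.19 (edgeR unadjusted p = 0.000552 and 0.0758). The unadjusted p of VIM was between 2.01e-06 and 0.00524 over the 17 alternatives, with log2 fold changes of -0.67 to -0.52.

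**Figure D5:**
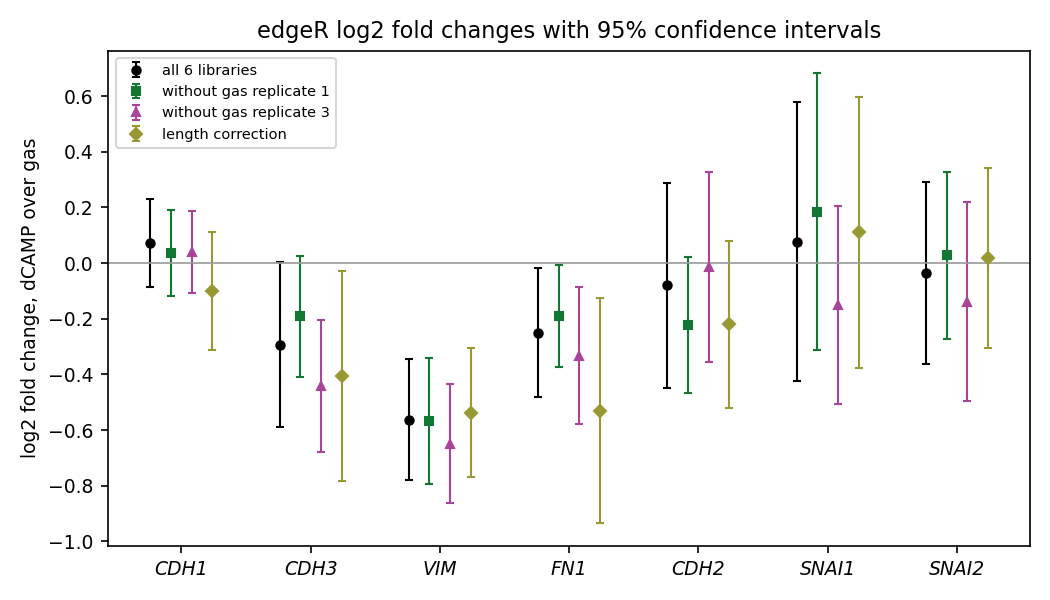
Log2 fold changes of dCAMP over gas for the 7 tested EMT markers from edgeR, with 95% confidence intervals, in all 6 libraries, without gas 1, without gas 3 and with a correction for gene length. The VIM interval lies under 0 in all 4 fits, that of FN1 ends close to 0 in the first and second (-0.02 and -0.01), that of CDH3 crosses 0 in the first and second, and those of CDH1, CDH2, SNAI1 and SNAI2 cross 0 in all 4.

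Other genes of the same program were counted in 6 lists. In the epithelial junction list (11 genes, all tested), CTNNB1, which encodes the beta-catenin that binds the tail of cadherins, was the only gene with an unadjusted p under 0.05, against 20.7% of all genes tested. It was at 179.3, 182.4 and 197.4 FPKM in gas and at 243.6, 233 and 247.9 FPKM in dCAMP, without overlap, with a log2 fold change of 0.39 (SE 0.081, edgeR unadjusted p = 0.00275, adjusted p = 0.221). The 2 most abundant genes of the list, the desmosomal genes JUP (343.1 FPKM in gas, 302.8 FPKM in dCAMP) and DSP (308.2 and 328.2 FPKM), had unadjusted p-values of 0.162 and 0.2 in edgeR. Over the junction list the median log2 fold change was 0.10, and -0.06 with the correction for gene length.

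Of the 11 epithelial regulators, all tested, 2 had an unadjusted p under 0.05, a share near the 20.7% of all genes tested, and both were lower in dCAMP. ELF3, an epithelial ETS factor, had a log2 fold change of -0.44 (SE 0.18, edgeR unadjusted p = 0.042, adjusted p = 0.237). ESRP2, a splicing factor of epithelial cells, had a log2 fold change of -0.25 (SE 0.10, edgeR unadjusted p = 0.0489, adjusted p = 0.241). ELF3 kept an unadjusted p under 0.05 in 10 of 17 alternatives and ESRP2 in 5 of 17. ELF3 was at 9.73, 7.06 and 6.33 FPKM in gas and at 6.12, 5.16 and 5.61 FPKM in dCAMP, graded over the gas libraries in the manner of CDH3. The most abundant of the list were the trafficking gene RAB25 (141.5 FPKM in gas and 121.5 in dCAMP), the zinc finger factor KLF5 (92.7 and 113.7 FPKM) and GRHL3, a regulator of epidermal differentiation (37.7 and 37.0 FPKM). Over the regulators the median was -0.02 on the log2 scale, and none of the other 9 genes had an unadjusted p under 0.05. Without gas 3 the median was -0.20, and 1 gene was higher and 4 lower at that threshold, which 49.2% of all genes passed in that fit.

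Of 16 mesenchymal and matrix genes, 11 were tested and CDH11 was listed at 0. Only ITGA5, the alpha chain of a fibronectin receptor, had an unadjusted p under 0.05, against 20.7% of all genes tested. ITGA5 was at 8.76, 6.86 and 6.19 FPKM in gas and at 5.53, 5.04 and 5.32 FPKM in dCAMP, graded over the gas libraries in the manner of CDH3. Its log2 fold change was -0.45 (SE 0.14, edgeR unadjusted p = 0.0176, adjusted p = 0.221). The most abundant genes of this list were the hyaluronan receptor CD44 (139.6 FPKM in gas and 143.4 in dCAMP), the calcium-binding gene S100A4 (117.3 and 119.8 FPKM) and the matrix gene SPARC (63.5 and 67.9 FPKM). Their unadjusted p-values in edgeR were 0.267, 0.863 and 0.228. Over this list the median log2 fold change was 0.03, next to that of all genes, and it was -0.13 both with the correction for gene length and without gas 3.

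Of 12 other EMT transcription factors, 8 were tested, and TWIST2, KLF8 and GSC were listed at 0. TCF3, the gene of the E-box binding proteins E12 and E47, was lower in every dCAMP library, at 17.7, 15.9 and 13.3 FPKM in gas and 10.8, 11.03 and 10.7 FPKM in dCAMP. It was graded over the gas libraries in the manner of CDH3. Its log2 fold change was -0.52 (SE 0.12, edgeR unadjusted p = 0.00398, adjusted p = 0.221). PRRX1, a homeobox factor, was higher in every dCAMP library, at 15.8, 15.5 and 19.6 FPKM in gas and 21.8, 22.5 and 22.7 FPKM in dCAMP, with a log2 fold change of 0.57 (SE 0.21, edgeR unadjusted p = 0.0307, adjusted p = 0.226). TCF3 kept an unadjusted p under 0.05 in all 17 alternatives and PRRX1 in 13. These were the only genes of the 8 with such a p, a share near the 20.7% of all genes tested. In CPM, the groups did not overlap for 39.9% of all genes tested. SOX9, the other of the 3 most abundant genes of this list, was at 20.0 FPKM in gas and 16.7 FPKM in dCAMP (unadjusted p = 0.169 in edgeR). Over these factors the median was -0.01 on the log2 scale, -0.10 with upper-quartile factors and -0.19 without gas 3.

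The TGF-beta list (10 genes, all tested) held 4 genes with an unadjusted p under 0.05, of which 3 were higher and 1 lower, and 20.7% of all genes tested had such a p. TGFB1, a ligand that induces EMT, was at 11.1, 11.5 and 10.1 FPKM in gas and 7.94, 6.94 and 8.23 FPKM in dCAMP, with a log2 fold change of -0.50 (SE 0.12, edgeR unadjusted p = 0.00459, adjusted p = 0.221). TGFB2, another ligand, was at 2.54, 3.03 and 3.51 FPKM in gas and 4.21, 4.46 and 4.25 FPKM in dCAMP, with a log2 fold change of 0.51 (SE 0.16, edgeR unadjusted p = 0.0172, adjusted p = 0.221). The 2 ligands thus differed in opposite directions, and each kept its direction and an unadjusted p under 0.05 in all 17 alternatives. Neither SMAD4 nor INHBA was as stable, with an unadjusted p under 0.05 in 11 and 10 of the 17 alternatives. SMAD4, the common partner of the receptor-activated SMAD proteins, was the third by p (4.65, 5.33 and 6.87 FPKM in gas against 7.16, 7.86 and 7.59 FPKM in dCAMP, edgeR unadjusted p = 0.0414), and INHBA, an activin subunit, was the fourth (unadjusted p = 0.0479). TGFB2, SMAD4 and INHBA were graded over the gas libraries toward dCAMP in the manner of CDH3, while TGFB1 was highest in gas 2. The receptor gene TGFBR2 was the most abundant of the list (71.9 FPKM in gas and 78.7 in dCAMP, edgeR adjusted p = 0.287), followed by SMAD3 (31.4 and 26.0 FPKM, edgeR adjusted p = 0.272). The median log2 fold change was 0.31, against 0.03 over all genes, and 0.11 with the correction for gene length, which left 1 gene higher and 2 lower at an unadjusted p under 0.05.

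Of 12 further cadherins, 5 were tested and CDH8, CDH9, CDH10, CDH12 and CDH16 were listed at 0. CDH13, a cadherin anchored to the membrane by a lipid, was the only one near the level of CDH1 and CDH3, at 56.3 ± 2.32 FPKM in gas and 53.8 ± 0.947 FPKM in dCAMP (SD, n = 3), and CDH6 followed at 10.8 and 10.5 FPKM. An unadjusted p under 0.05 in edgeR was reached by CDH4, with a log2 fold change of -0.65 (SE 0.16, adjusted p = 0.221), CDH18, with 0.54 (SE 0.21, adjusted p = 0.235), and CDH5, with 0.69 (SE 0.27, adjusted p = 0.237), and all 3 had levels under 1 FPKM. Over all genes tested, 20.7% reached such a p, and 5 genes are too few for a share to be read as a result about cadherins. CDH4 kept such a p in all 17 alternatives, CDH18 in 11 and CDH5 in 7, with log2 fold changes of 0.09 to 0.83 for CDH5. CDH5, the cadherin of endothelial cells, is also in the endothelial marker list, which summed to 2.01 to 2.39 FPKM in gas and 2.53 to 3.13 FPKM in dCAMP. Without gas 3, the number of these cadherins with an unadjusted p under 0.05 in edgeR fell to 1 higher and 1 lower. That number grew in other lists, to 3 higher and 2 lower in the junction list, 1 higher and 3 lower in the mesenchymal and matrix list, and 5 higher and 2 lower in the TGF-beta list, against 49.2% of all genes tested in that fit.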

How the data were processed

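RNA-Seq was performed on 3 gas-treated and 3 dCAMP-treated CPEK samples, grouped by their labels. The libraries were prepared with a stranded mRNA kit. Before mapping, the authors trimmed adapters and removed contaminant DNA and duplicated reads. They then aligned to CanFam3.1 and quantified known transcripts, for which the submitters' processing notes list FastQC 0.11.7, Trimmomatic 0.38, HISAT2 2.1.0 and StringTie 2.1.3b. Whole-number read counts were deposited without normalization, for 35993 genes in one table and 87504 transcripts in another. Each deposited table also gives FPKM, which the authors scaled to length and mapped reads. The annotation release and the counting of reads on overlapping genes are not given in the sources used here. The 12 TPM columns were not used.

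The software was R 4.3.3 with DESeq2 1.42.0, limma 3.58.1 and edgeR 4.0.16. The main test was edgeR's quasi-likelihood test between dCAMP and gas, with TMM normalization, filterByExpr and Benjamini-Hochberg adjustment over the 14708 genes kept. Log2 fold changes used a prior count of 2, and standard errors and 95% intervals were derived from the fold change and the F statistic. The edgeR test without and with the replicate block, voom and DESeq2's test were also run on simulated counts, and the other alternatives were not. The simulated libraries held neither a graded distance of the gas libraries nor a trend with gene length. Members were matched by symbol, and their positions were read from the transcripts. The SNAI2 to ZEB1 ratio was not formed because ZEB1 was listed at 0. The median of each class and the ratios are descriptions without a test.

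All members were named. In each further list, the genes named were at most the 3 with the highest mean FPKM and at most the 3 with the smallest p among those with an unadjusted p under 0.05; the fourth such TGF-beta gene, the markers of other cell types and the genes listed at 0 were named in addition, after their values were seen. The members and lists were chosen with earlier results of these data known. Depth was 43084921 to 54082634 counts per library, and limits from counts cover counting error only.

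The alternatives were DESeq2's size factors, upper-quartile factors, no filter, at least 10 counts in every library, DESeq2's test on genes with a count in every library, voom with quality weights, limma on log2(FPKM + 1) and log2(FPKM + 0.1), the replicate number as a block, a lowess correction for gene length (span 0.3) without and with that block, and fits with 1 library removed.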

Additional observations from a re-analysis of the deposited data

How the results depend on the processing

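VIM was lower with an unadjusted p under 0.05 in all 17 alternatives; its adjusted p was under 0.05 with DESeq2, with voom and without gas 3. The number of EMT genes with an unadjusted p under 0.05, 2 in all 6 libraries, was 1 with DESeq2, with log2(FPKM + 1), with log2(FPKM + 0.1) and with the replicate block, 4 with voom (VIM, FN1, CDH3 and CDH2), and 3 without a filter and with the length correction, where CDH3 was added; it was 1 to 3 when a library was left out. The number with an adjusted p under 0.05, 0 in all 6 libraries, was 1 with DESeq2, 3 with voom, and 0 to 2 when a library was left out, with 2 reached without gas 3. The median log2 fold change of the epithelial cadherins (-0.11) was -0.203 with upper-quartile factors, -0.253 with the length correction, -0.241 with that correction and the replicate block, and -0.201 to -0.078 when a library was left out. The median of the mesenchymal genes (-0.25) was -0.53 with the length correction and -0.507 with that correction and the replicate block. The median of SNAI1 and SNAI2 (0.02) was -0.145 to 0.106 when a library was left out. The cause of these shifts was not tested.

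The sign of CDH1 turned with upper-quartile factors (-0.014), the length correction (-0.10) and the length correction with the replicate block (-0.098). The sign of SNAI1 turned with upper-quartile factors (-0.023), voom (-0.026), without dCAMP 1 (-0.009) and without gas 3 (-0.152), within a range of -0.152 to 0.185 when a library was left out. The sign of SNAI2 turned with voom (0.031), the length correction (0.019), that correction with the replicate block (0.013), without gas 1 (0.027) and without dCAMP 2 (0.041), within a range of -0.139 to 0.041 when a library was left out. None of these values had an unadjusted p under 0.05.

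The samples of equal number share only a number: deviations from the group means correlated at 0.13, 0.024 and 0.048 for pairs 1, 2 and 3, and of the 3 pairs only 1 was over 0.1. With the replicate block, VIM had an unadjusted p of 0.00212 and FN1 of 0.069 in edgeR.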
